A study of Mus musculus with 28 samples.

Results

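Scin, Ctla2a, Mpzl2, Drc7, Pcmtd1, Pdlim4, Trpm1, Arhgap20, Lysmd2 and Arsi are 10 mouse genes, of 24421 gene symbols counted, whose RNA level differed widely between DN4 and DN2/3 thymocytes in 1 or more of 3 genotypes. They were chosen by that difference, so the stage differences below are given as descriptions with no test. Genotypes were compared within a stage, in tests across all genes. The levels compared there are the same ones that set the stage differences, so those tests are not free of the choice, and their p-values describe the members without being independent support.

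Double-negative (DN) thymocytes lack both CD4 and CD8, and DN2/3 and DN4 are successive stages of them. At the DN3 stage the T-cell receptor beta chain is rearranged and tested at the surface together with the pre-T-alpha chain. Cells that pass this test, called beta-selection, lose CD25 (the product of Il2ra), enter DN4, divide and go on to make CD4 and CD8. LMO2 is a LIM-domain adaptor of blood stem cells that binds LDB1 and DNA-binding proteins of the GATA, bHLH (E-box binding) and other families. Forced LMO2 in thymocytes of mice leads to T-cell leukaemia.

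The 6 groups were DN4 and DN2/3 thymocytes of mice with the genotype Lmo2tg; Ldb1-KO (called Ldb1-KO here, 5 libraries at each stage), of Lmo2tg mice (5 at each stage) and of wild type C57BL/6 mice (4 at each stage), 28 libraries in all. Ldb1-KO mice therefore carry the same Lmo2 transgene as Lmo2tg mice. Floxed Ldb1 alleles and 3 Cre lines (Lck-Cre, Rag1-Cre and IL-7Ra-Cre) are named in the labels. No source used here gives the Cre line behind each Ldb1-KO sample, the promoter of the transgene or the ages of the mice. In the labels the cell type reads CD4 T cell, while the subset is a double-negative one. The design text counts 4 Ldb1-KO replicates and the sample labels give 5, which were followed. Whether replicates are separate animals is not stated, so p-values measure the spread between these libraries, which may be technical.

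The libraries held between 28.1 and 106.9 M counts each (median 60.5 M). Levels are given as CPM, the count a gene would have in a library of 1 M, after library sizes were scaled by TMM (trimmed mean of M-values). The genotype labels were borne out by Lmo2 and Ldb1. Lmo2 lay between 25.3 and 68.9 CPM in Ldb1-KO and Lmo2tg libraries and at or below 0.41 CPM in wild type. Ldb1 was at 6.11 to 54.6 CPM in Ldb1-KO DN4 libraries, 57.1 to 120 CPM in Ldb1-KO DN2/3 libraries and at least 247 CPM in the Lmo2tg and wild type libraries, so Ldb1 reads persisted in every Ldb1-KO library. Il2ra, the marker of the DN2/3 side, averaged 44.8 ± 18.6 CPM in DN4 against 1400.0 ± 343 CPM in DN2/3 of Ldb1-KO (SD, n = 5 each). It averaged 71.0 ± 36.4 against 779 ± 159 CPM in Lmo2tg (SD, n = 5 each) and 39.6 ± 12.2 against 1510.0 ± 140.0 CPM in wild type (SD, n = 4 each). Wild type and transgenic libraries are named by different schemes, so a library series and a difference from wild type cannot be told apart. In bulk RNA of this kind, fewer cells that use a gene and less RNA per cell cannot be told apart either.

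Promoter windows of 300 bases (250 before to 50 after the start) were found in RefSeq for 6 of the 10 genes, Scin, Ctla2a, Drc7, Pdlim4, Trpm1 and Arhgap20. Mpzl2, Lysmd2, Arsi and Pcmtd1 had no entry. Windows are shown for Scin and Ctla2a, the pair with the largest ratio of the DN2/3 mean to the DN4 mean in wild type among the genes lower at DN4, and for Trpm1 and Arhgap20, the pair that ran most alike over the 28 libraries. They read 5′ to 3′ on the gene's strand in build GRCm38.p6: Scin chr12:40134179-40134478 (minus), Ctla2a chr13:60936576-60936875 (minus), Trpm1 chr7:64153585-64153884 (plus) and Arhgap20 chr9:51765101-51765400 (plus). Capitals mark matches to the E-box letters CANNTG and the GATA letters GATAA or TTATC.
Scin: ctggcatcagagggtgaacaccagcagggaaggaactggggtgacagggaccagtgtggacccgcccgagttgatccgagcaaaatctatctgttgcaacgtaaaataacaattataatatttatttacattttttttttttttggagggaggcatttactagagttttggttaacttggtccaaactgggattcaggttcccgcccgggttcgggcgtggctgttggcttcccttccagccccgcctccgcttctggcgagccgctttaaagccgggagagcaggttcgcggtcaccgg
Ctla2a: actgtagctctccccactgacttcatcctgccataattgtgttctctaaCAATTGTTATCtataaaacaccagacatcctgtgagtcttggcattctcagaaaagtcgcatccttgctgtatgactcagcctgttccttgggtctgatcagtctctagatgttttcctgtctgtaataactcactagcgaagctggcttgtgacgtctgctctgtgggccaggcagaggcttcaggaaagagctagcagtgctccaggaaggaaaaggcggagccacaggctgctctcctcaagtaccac
Trpm1: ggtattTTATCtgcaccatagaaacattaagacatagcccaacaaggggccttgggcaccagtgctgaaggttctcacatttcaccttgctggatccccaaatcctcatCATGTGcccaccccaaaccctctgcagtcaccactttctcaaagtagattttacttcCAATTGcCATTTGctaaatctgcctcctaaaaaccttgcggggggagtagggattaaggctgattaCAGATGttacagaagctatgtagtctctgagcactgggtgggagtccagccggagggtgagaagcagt
Arhgap20: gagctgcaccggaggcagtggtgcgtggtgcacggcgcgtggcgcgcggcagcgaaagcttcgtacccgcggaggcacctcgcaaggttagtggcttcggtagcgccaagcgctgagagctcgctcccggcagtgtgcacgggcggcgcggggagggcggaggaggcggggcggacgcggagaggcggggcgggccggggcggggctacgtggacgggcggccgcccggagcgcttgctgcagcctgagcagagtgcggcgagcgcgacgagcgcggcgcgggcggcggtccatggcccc
The motifs were searched on both strands, together with the Runx letters TGTGGT or ACCACA. Of 27025 mouse promoter windows of this length, 72.1% held an E-box match, 25.8% a GATA match and 16.9% a Runx match. The Ctla2a window held 1 E-box match and, directly after it, 1 GATA match. The Trpm1 window held 4 E-box matches and 1 GATA match, none of them overlapping. No match to these letters was found in the Scin and Arhgap20 windows, and no Runx match in any of the 4. A second RefSeq start of Ctla2a and one of Trpm1 had 1 and 4 E-box matches and no GATA match. A match is a run of letters and was not tested as a binding site.

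Trpm1 and Arhgap20 also differed in base composition, with 48.3% G and C in the Trpm1 window and 77.0% in the Arhgap20 window. The Scin window had 52.0% and the Ctla2a window 49.0%.

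In wild type, the DN4 libraries of 9 of the 10 genes lay wholly above or wholly below the DN2/3 libraries. The 4 that lay above were Pdlim4, Trpm1, Arhgap20 and Arsi, in a contrast where 24.9% of all 14371 genes tested did so. The 5 that lay below were Scin, Ctla2a, Mpzl2, Drc7 and Pcmtd1, as did 29.2% of all genes. In Lmo2tg the stages stood apart for 6 of the 10, Pdlim4, Trpm1, Arhgap20 and Lysmd2 above (2.18% of all genes) and Mpzl2 and Drc7 below (2.30% of all genes). In Ldb1-KO they stood apart for 8 of the 10, the same 4 above as in Lmo2tg (11.0% of all genes) and Scin, Mpzl2, Drc7 and Pcmtd1 below (12.7% of all genes). The genes were chosen by this contrast, so nothing is read from these counts. Pdlim4, Trpm1, Arhgap20, Mpzl2 and Drc7 kept their stages apart in all 3 genotypes, and Ctla2a and Arsi in wild type alone.

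**Figure D1:**
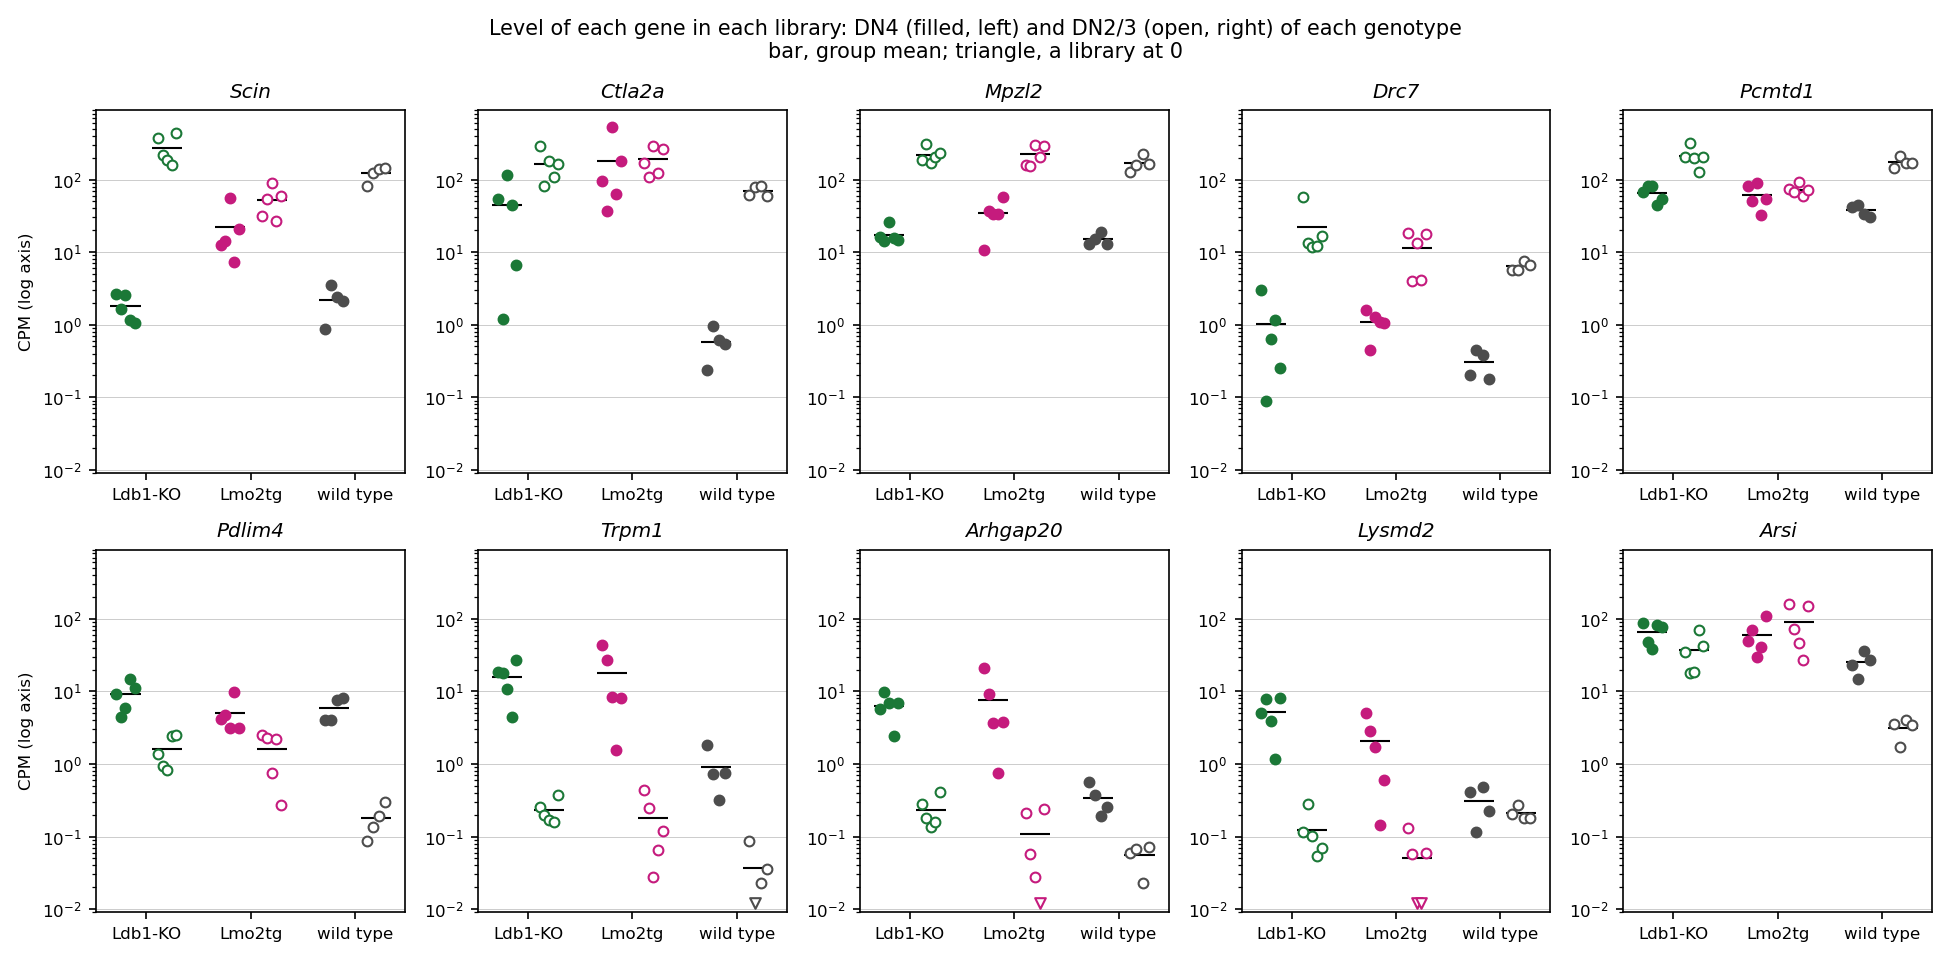
Level of each of the 10 genes in each of the 28 libraries (CPM, log axis), by genotype, with DN4 libraries filled on the left and DN2/3 libraries open on the right of each pair. Bars are group means and triangles are libraries at 0; the Scin panel shows DN4 libraries at 1.06 to 2.65 CPM in Ldb1-KO, 7.25 to 55.9 in Lmo2tg and 0.879 to 3.49 in wild type.

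**Figure D2:**
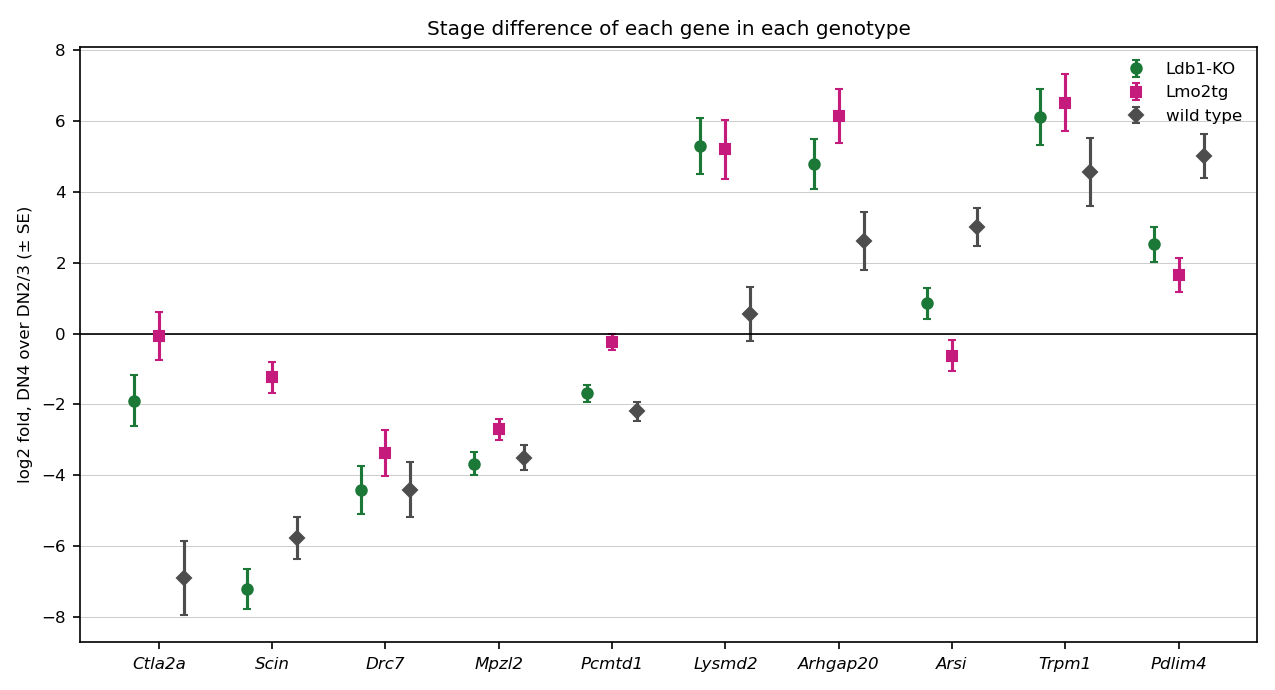
Log2 fold of DN4 over DN2/3 for each gene (vertical axis, points with SE) in Ldb1-KO, Lmo2tg and wild type. Ctla2a and Pcmtd1 have Lmo2tg points near 0 (-0.07 and -0.24), while Lysmd2 is at 0.55 in wild type and at 5.29 and 5.20 in Ldb1-KO and Lmo2tg.

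Scin encodes scinderin (adseverin), a calcium-dependent protein of the gelsolin family that severs and caps actin filaments, and lies at chr12:40059769-40134228 on the minus strand of mm10. Ldb1-KO libraries had 2.65, 1.65, 2.59, 1.17 and 1.06 CPM of Scin at DN4, against 379, 217, 187, 161 and 432 CPM at DN2/3. Lmo2tg libraries had 12.4, 14.1, 55.9, 7.25 and 21.0 CPM at DN4, against 31.5, 54.1, 88.2, 26.7 and 59.6 CPM at DN2/3. Wild type libraries had 0.879, 3.49, 2.38 and 2.13 CPM at DN4, against 80.3, 122, 141 and 142 CPM at DN2/3. The 2 stages were far apart in Ldb1-KO and in wild type and overlapped in Lmo2tg, where replicate 3 was the highest library at both stages. Libraries with the same replicate number pair the stages within a genotype, and Scin was lower at DN4 in 5 of 5 Lmo2tg pairs. As a percentage of the DN2/3 mean, the DN4 mean of Scin was 0.663% in Ldb1-KO, 42.5% in Lmo2tg and 1.83% in wild type. The log2 folds of DN4 over DN2/3 were -7.20 ± 0.57, -1.24 ± 0.44 and -5.77 ± 0.59 (SE) in that order of genotypes, and the Lmo2tg fold was -1.93 without DN4 replicate 3. With replicate numbers as a block within each genotype the Lmo2tg fold was -1.45 ± 0.23 (SE).

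Scin also differed between genotypes within each stage, in both directions. At DN4, it fell in Ldb1-KO relative to Lmo2tg (log2 fold -3.56 ± 0.49 SE, adjusted p = 1.8e-05 by edgeR's quasi-likelihood test with Benjamini-Hochberg adjustment), with every Ldb1-KO library below every Lmo2tg library. At DN4 it rose in Lmo2tg relative to wild type (log2 fold 3.32 ± 0.53 SE, edgeR adjusted p = 1.92e-05), again with no overlap. Without Lmo2tg DN4 replicate 3 these folds were -2.87 (edgeR adjusted p = 4.73e-05) and 2.62 (edgeR adjusted p = 4.39e-05). At DN4, Ldb1-KO and wild type overlapped (log2 fold -0.25 ± 0.51 SE, edgeR adjusted p = 0.735), a fold that was 0.04 without wild type DN4 replicate 2.

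At DN2/3, Scin rose in Ldb1-KO relative to Lmo2tg (log2 fold 2.40 ± 0.45 SE, edgeR adjusted p = 0.000356), and the groups did not overlap. The Lmo2tg level at DN2/3 was below wild type (log2 fold -1.22 ± 0.45 SE, edgeR adjusted p = 0.043), with overlap between the libraries. That call was lost in 9 of 15 alternatives, whose adjusted p ran from 0.00998 to 0.104. It was lost without Lmo2tg replicate 1 (0.0943), 2 (0.07), 4 (0.104) or 5 (0.0538), and without wild type replicate 2 (0.075), 3 (0.0953) or 4 (0.0959), each given as edgeR's adjusted p, and also without the filter on low counts (0.0674) and by DESeq2 (0.0534). Every Ldb1-KO DN2/3 library was above every wild type DN2/3 library, and the fold did not pass the test (log2 fold 1.18 ± 0.46 SE, edgeR adjusted p = 0.109). It passed with those groups fitted alone (edgeR adjusted p = 0.0163), in a range of 0.0163 to 0.288 over the alternatives.

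Ctla2a encodes a small inhibitor of cysteine proteases that resembles the propeptide of cathepsins, and lies at chr13:60934155-60936625 on the minus strand. Ldb1-KO libraries had 53.8, 1.18, 114, 44.0 and 6.73 CPM of Ctla2a at DN4, against 286, 82.5, 182, 107 and 164 CPM at DN2/3. Lmo2tg libraries had 95.4, 37.3, 531, 63.7 and 181 CPM at DN4, against 171, 107, 289, 124 and 261 CPM at DN2/3. In wild type, the libraries had 0.234, 0.944, 0.618 and 0.545 CPM at DN4, against 61.9, 78.4, 81.6 and 59.6 CPM at DN2/3. The gene was close to 0 at DN4 in wild type, overlapped between the stages in Lmo2tg, and spread over the whole interval between in Ldb1-KO DN4 libraries. The DN4 library was below its DN2/3 partner of the same number in 5 of 5 Ldb1-KO pairs, 4 of 5 Lmo2tg pairs and 4 of 4 wild type pairs, the exception being Lmo2tg replicate 3. The DN4 mean was 26.7% of the DN2/3 mean in Ldb1-KO, 95.4% in Lmo2tg and 0.832% in wild type. DN4 over DN2/3 gave log2 folds of -1.90 ± 0.72, -0.07 ± 0.69 and -6.90 ± 1.05 (SE) in that order. Without Lmo2tg DN4 replicate 3 the Lmo2tg fold was -1.01, and without Ldb1-KO DN4 replicate 3 the Ldb1-KO fold was -2.64. With replicate numbers as a block within each genotype the folds were -2.76 ± 0.63 in Ldb1-KO, -0.61 ± 0.55 in Lmo2tg and -6.93 ± 0.84 (SE) in wild type.

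Ctla2a rose at DN4 in both transgenic genotypes relative to wild type. The log2 fold at DN4 was 6.22 ± 1.01 (SE) for Ldb1-KO over wild type (edgeR adjusted p = 0.00012) and 8.27 ± 1.10 (SE) for Lmo2tg over wild type (edgeR adjusted p = 1.98e-06). Every transgenic DN4 library was above every wild type DN4 library. Without Ldb1-KO DN4 replicate 3 the first fold was 5.49 (edgeR adjusted p = 0.000299), and without Lmo2tg DN4 replicate 3 the second was 7.33 (edgeR adjusted p = 2.92e-06). Between Ldb1-KO and Lmo2tg at DN4, Ctla2a had a log2 fold of -2.05 ± 0.72 (SE) and did not pass the test (edgeR adjusted p = 0.0572). Over the alternatives that adjusted p ran from 0.0173 to 0.307. The call was made without Ldb1-KO replicate 3 (0.0173) and without Lmo2tg replicate 2 (0.0314) or 4 (0.032), in edgeR's adjusted p, with the replicate block (0.0397) and by DESeq2 (0.0309), and the fold was -1.10 without Lmo2tg replicate 3 (edgeR adjusted p = 0.307). At DN2/3 no genotype pair passed the test for Ctla2a. Every library of Ldb1-KO and of Lmo2tg was above every wild type library there (log2 folds 1.22 ± 0.76 SE, edgeR adjusted p = 0.317, and 1.44 ± 0.76 SE, edgeR adjusted p = 0.168). With the compared groups fitted alone, those adjusted p-values from edgeR were 0.0149 and 0.00284.

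The 5 Ldb1-KO DN4 libraries also differed in the Ldb1 reads they kept. Replicates 1 to 5 had 21.4, 6.11, 33.9, 54.6 and 12.2 CPM of Ldb1, beside the Ctla2a levels given above. Replicates 2 and 5 were lowest in both genes. A further list moved with Ctla2a: the summed level of 8 mast cell and basophil markers was 152, 3.07, 370, 198 and 31.2 CPM in the same 5 libraries, 499, 136, 1580, 199 and 888 CPM in the Lmo2tg DN4 libraries and 2.21 to 5.82 CPM in the wild type DN4 libraries. Of that list, Mcpt4, Fcer1a and Tpsb2 were at 0 in every library of all 3 groups. Ms4a2 was also at 0 in the Ldb1-KO and Lmo2tg DN4 libraries, and Cma1 in the Lmo2tg and wild type DN4 libraries. With Mcpt8 at 0 too in Lmo2tg DN4, the sum there came from Cpa3 and Hdc alone. The part of residual Ldb1 and of these markers in the level of Ctla2a was not tested.

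Of the 101-base stretches in the annotated Ctla2a transcripts, 10.9% also occur in other genes, which are Gm49391, Ctla2b and Kcnq1ot1. Gm49391 overlaps Ctla2a exons on the same strand and is not among the symbols counted. Some reads of Ctla2a and Ctla2b may be counted for each other, and the share for Ctla2b alone was not worked out. Ctla2b, the close relative of Ctla2a, averaged 1.4 ± 1.23 CPM in Ldb1-KO, 5.70 ± 7.89 CPM in Lmo2tg (SD, n = 5 each) and 0.0146 ± 0.0293 CPM in wild type (SD, n = 4) at DN4. Its DN4 mean was 22.2% of its DN2/3 mean in Ldb1-KO, 166% in Lmo2tg and 1.01% in wild type.

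**Figure D3:**
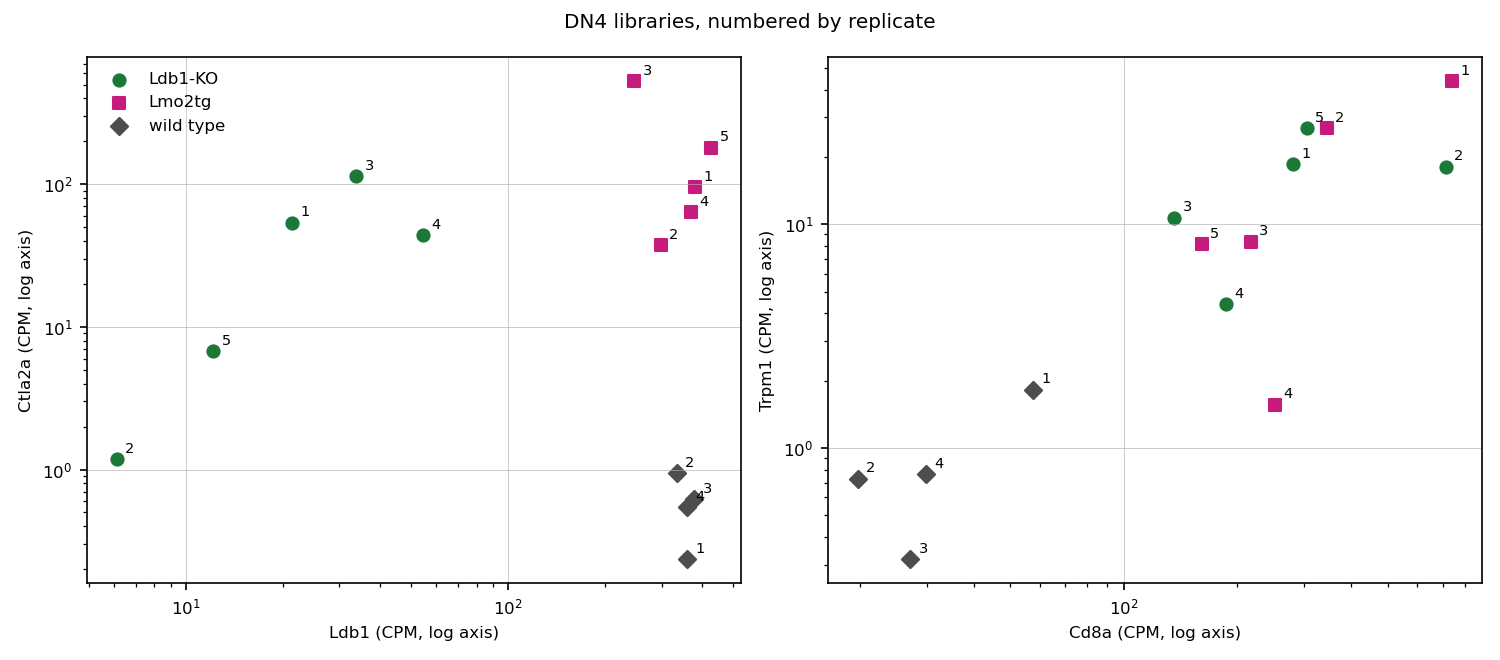
DN4 libraries numbered by replicate: left, Ctla2a against Ldb1; right, Trpm1 against Cd8a (all CPM, log axes), with Ldb1-KO as circles, Lmo2tg as squares and wild type as diamonds. Ldb1-KO replicates 2 and 5 are lowest in both Ldb1 (6.11 and 12.2 CPM) and Ctla2a (1.18 and 6.73 CPM), and Lmo2tg replicate 1 is the highest library in Trpm1 (43.7 CPM) and in Cd8a (742 CPM).

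Mpzl2, an adhesion protein of the immunoglobulin superfamily that is known from thymus epithelium and lies at chr9:45039799-45054015 on the plus strand, kept its stage difference in every genotype. Ldb1-KO libraries had 16.0, 14.3, 26.2, 15.8 and 14.5 CPM of Mpzl2 at DN4, against 186, 310, 171, 206 and 232 CPM at DN2/3. Lmo2tg libraries had 10.6, 36.7, 33.0, 33.8 and 57.4 CPM at DN4, against 159, 153, 302, 206 and 292 CPM at DN2/3. Wild type libraries had 12.8, 15.2, 18.7 and 13 CPM at DN4, against 127, 157, 227 and 165 CPM at DN2/3. The stages were apart in all 3 genotypes, and 4 of the 5 Lmo2tg DN4 libraries were above every other DN4 library. The log2 folds of DN4 over DN2/3 were -3.67 ± 0.32, -2.70 ± 0.30 and -3.50 ± 0.35 (SE) in Ldb1-KO, Lmo2tg and wild type.

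At DN4, Mpzl2 rose in Lmo2tg relative to wild type (log2 fold 1.20 ± 0.31 SE, edgeR adjusted p = 0.00267). It was lower in Ldb1-KO than in Lmo2tg (log2 fold -0.98 ± 0.29 SE, edgeR adjusted p = 0.0234). The Ldb1-KO call was lost with those groups fitted alone (0.146), without Lmo2tg replicate 5 (0.104) and without Ldb1-KO replicate 1 (0.053), 2 (0.065) or 5 (0.0644), in a range of edgeR adjusted p of 0.000941 to 0.146. At DN2/3 the 3 genotypes overlapped, with means of 221 ± 55.0, 222 ± 71.1 (SD, n = 5 each) and 169 ± 42.1 CPM (SD, n = 4) in Ldb1-KO, Lmo2tg and wild type, and no pair passed the test. Of the 101-base stretches of Mpzl2, 28.1% are shared with Gm48840 on the opposite strand, and the library kit does not mark strand.

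Drc7, a part of the nexin-dynein regulatory complex that governs beating of motile cilia, lies at chr8:95055103-95078141 on the plus strand. Ldb1-KO libraries had 3.03, 0.0881, 0.638, 1.17 and 0.249 CPM of Drc7 at DN4, against 56.8, 13.5, 11.8, 12.0 and 16.6 CPM at DN2/3. Lmo2tg libraries had 1.58, 0.453, 1.29, 1.10 and 1.06 CPM at DN4, against 18.1, 4.02, 13.2, 4.07 and 17.6 CPM at DN2/3. In wild type, the libraries had 0.205, 0.443, 0.38 and 0.177 CPM at DN4, against 5.59, 5.61, 7.62 and 6.73 CPM at DN2/3. The stages did not overlap in any genotype, and Ldb1-KO replicate 1 was the highest library at each stage. DN4 over DN2/3 gave log2 folds of -4.41 ± 0.68, -3.38 ± 0.65 and -4.40 ± 0.78 (SE) in Ldb1-KO, Lmo2tg and wild type. The Ldb1-KO fold was -3.69 without DN2/3 replicate 1 and -5.42 without DN4 replicate 1.

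Drc7 rose at DN4 in Lmo2tg relative to wild type (log2 fold 1.86 ± 0.72 SE, edgeR adjusted p = 0.0326), with no overlap between those libraries. The call was lost without Lmo2tg replicate 1 (0.072) or 3 (0.0548) and without wild type replicate 1 (0.0831), 3 (0.0525) or 4 (0.089), in a range of edgeR adjusted p of 0.0139 to 0.089. Ldb1-KO over wild type at DN4 had a like log2 fold of 1.79 ± 0.72 (SE) that did not pass (edgeR adjusted p = 0.057). It passed without Ldb1-KO replicate 2 (0.0251) or 5 (0.0388) and by DESeq2 (0.0335), and the fold was 0.78 without Ldb1-KO replicate 1 (0.41, the highest edgeR adjusted p over the alternatives). At DN2/3 every Ldb1-KO library was above every wild type library (log2 fold 1.80 ± 0.65 SE, edgeR adjusted p = 0.0817), and the test was passed only with those groups fitted alone (edgeR adjusted p = 0.0206). Without Ldb1-KO DN2/3 replicate 1 that fold was 1.08 (edgeR adjusted p = 0.296).

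Pcmtd1 carries the domain of the protein isoaspartate methyltransferase, an enzyme that repairs damaged aspartate residues, and lies at chr1:7088920-7173628 on the plus strand. Ldb1-KO libraries had 68.0, 81.2, 81.3, 44.2 and 54.5 CPM of Pcmtd1 at DN4, against 206, 316, 201, 128 and 205 CPM at DN2/3. Lmo2tg libraries had 80.7, 50.3, 90.4, 32.3 and 54.3 CPM at DN4, against 73.5, 68.1, 92.6, 58.4 and 71.5 CPM at DN2/3. Wild type libraries had 42.1, 45.1, 33.9 and 30.9 CPM at DN4, against 145, 211, 170 and 168 CPM at DN2/3. The stages were apart in Ldb1-KO and wild type and overlapped in Lmo2tg, where the DN2/3 libraries were the low ones of their stage. In Lmo2tg, DN4 was lower in 4 of 5 pairs of the same number. The log2 folds of DN4 over DN2/3 were -1.68 ± 0.24, -0.24 ± 0.23 and -2.19 ± 0.27 (SE) in Ldb1-KO, Lmo2tg and wild type. With replicate numbers as a block within each genotype they were -1.66 ± 0.13, -0.31 ± 0.13 and -2.19 ± 0.15 (SE) in that order.

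At DN2/3, Pcmtd1 fell in Lmo2tg relative to wild type (log2 fold -1.25 ± 0.24 SE, edgeR adjusted p = 0.000299) and rose in Ldb1-KO relative to Lmo2tg (log2 fold 1.54 ± 0.24 SE, edgeR adjusted p = 3.49e-05), without overlap in either pair. Ldb1-KO and wild type overlapped there (log2 fold 0.28 ± 0.25 SE, edgeR adjusted p = 0.489). At DN4 both transgenic genotypes were above wild type, by a log2 fold of 0.79 ± 0.25 (SE) in Ldb1-KO (edgeR adjusted p = 0.0183) and 0.70 ± 0.25 (SE) in Lmo2tg (edgeR adjusted p = 0.0211), with overlap in both. The Ldb1-KO call was lost without wild type DN4 replicate 3 (0.062) or 4 (0.0614), in a range of edgeR adjusted p of 0.00396 to 0.062. The Lmo2tg call was lost with the 2 groups fitted alone (0.0682), without Lmo2tg replicate 1 (0.0643) or 3 (0.0837) and without wild type replicate 3 (0.0629) or 4 (0.0721), in a range of 0.00274 to 0.0837.

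Trpm1 encodes a cation channel known from retinal bipolar cells and melanocytes, hosts the microRNA gene Mir211 and lies at chr7:64153835-64269775 on the plus strand. Ldb1-KO libraries had 18.5, 18.1, 10.7, 4.38 and 26.8 CPM of Trpm1 at DN4, against 0.257, 0.198, 0.168, 0.159 and 0.377 CPM at DN2/3. Lmo2tg libraries had 43.7, 26.8, 8.35, 1.56 and 8.14 CPM at DN4, against 0.434, 0.245, 0.0275, 0.0656 and 0.12 CPM at DN2/3. In wild type, the libraries had 1.82, 0.729, 0.317 and 0.761 CPM at DN4, against 0.0878, 0, 0.0228 and 0.0358 CPM at DN2/3. DN4 was above DN2/3 in every genotype. Replicate 4 was the lowest DN4 library in both transgenic genotypes. DN4 over DN2/3 gave log2 folds of 6.11 ± 0.80, 6.51 ± 0.81 and 4.55 ± 0.96 (SE) in Ldb1-KO, Lmo2tg and wild type. The wild type fold rests on 12 counts over the 4 DN2/3 libraries and was 5.20 without wild type DN2/3 replicate 1, and the Lmo2tg fold was 5.86 without DN4 replicate 1 and 7.19 without DN2/3 replicate 1.

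At DN4, Trpm1 rose over wild type in Ldb1-KO (log2 fold 4.11 ± 0.77 SE, edgeR adjusted p = 0.000501) and in Lmo2tg (log2 fold 4.29 ± 0.77 SE, edgeR adjusted p = 8.47e-05). Ldb1-KO did not overlap wild type, while Lmo2tg replicate 4, at 1.56 CPM, was below wild type replicate 1, at 1.82 CPM. Without Lmo2tg DN4 replicate 1 the Lmo2tg fold was 3.63 (edgeR adjusted p = 0.000277). Between Ldb1-KO and Lmo2tg at DN4 the log2 fold was -0.17 ± 0.61 (SE, edgeR adjusted p = 0.902), and 0.48 without Lmo2tg DN4 replicate 1. At DN2/3 all 3 groups were below 0.5 CPM and no genotype pair passed the test for Trpm1. The adjusted p of Ldb1-KO over wild type there was 0.111 by edgeR, 0.0421 with the replicate block, 0.0106 with those groups fitted alone and 0.025 by DESeq2. That of Lmo2tg over wild type was 0.087 by edgeR and 0.03 by DESeq2.

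Arhgap20 encodes a GTPase-activating protein that acts with Rap1, and lies at chr9:51765337-51853856 on the plus strand. Ldb1-KO libraries had 5.80, 9.72, 6.83, 2.44 and 6.98 CPM of Arhgap20 at DN4, against 0.285, 0.183, 0.134, 0.159 and 0.412 CPM at DN2/3. Lmo2tg libraries had 20.9, 9.12, 3.70, 0.742 and 3.83 CPM at DN4, against 0.211, 0.0577, 0.0275, 0 and 0.241 CPM at DN2/3. Wild type libraries had 0.557, 0.372, 0.19 and 0.254 CPM at DN4, against 0.0585, 0.0676, 0.0228 and 0.0715 CPM at DN2/3. The stages were apart in all 3 genotypes, and the order of the Lmo2tg DN4 libraries was nearly that of Trpm1, with replicate 1 highest and replicate 4 lowest. The log2 folds of DN4 over DN2/3 were 4.79 ± 0.70, 6.14 ± 0.76 and 2.60 ± 0.82 (SE) in Ldb1-KO, Lmo2tg and wild type, and the Lmo2tg fold was 5.32 without DN4 replicate 1.

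Arhgap20 rose at DN4 over wild type in Ldb1-KO (log2 fold 4.20 ± 0.73 SE, edgeR adjusted p = 0.000252) and in Lmo2tg (log2 fold 4.47 ± 0.74 SE, edgeR adjusted p = 3.26e-05), with no overlap in either pair. Without Lmo2tg DN4 replicate 1 the Lmo2tg fold was 3.66 (edgeR adjusted p = 8.54e-05). The log2 fold of Ldb1-KO over Lmo2tg at DN4 was -0.27 ± 0.57 (SE, edgeR adjusted p = 0.827), and 0.55 without that library. At DN2/3 no pair passed. Every Ldb1-KO library was above every wild type library there (log2 fold 2.02 ± 0.82 SE, edgeR adjusted p = 0.119), on 59 counts over the 5 Ldb1-KO libraries against 18 over the 4 wild type ones. That adjusted p was 0.0131 with those groups fitted alone and 0.0419 by DESeq2. The antisense gene Arhgap20os shares 0.5% of the 101-base stretches, and reads of the pair cannot be told apart there.

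Lysmd2, a protein with a LysM domain (a fold that binds chitin-like sugars in other proteins), lies at chr9:75625741-75637771 on the plus strand and was the 1 gene of the 10 whose stages overlapped in wild type while they stood apart in both transgenic genotypes. Ldb1-KO libraries had 5.02, 7.83, 3.93, 1.17 and 8.22 CPM of Lysmd2 at DN4, against 0.114, 0.282, 0.101, 0.0531 and 0.0686 CPM at DN2/3. Lmo2tg libraries had 4.97, 2.89, 1.69, 0.144 and 0.607 CPM at DN4, against 0.132, 0.0577, 0, 0 and 0.0602 CPM at DN2/3. In wild type, the libraries had 0.41, 0.114, 0.476 and 0.228 CPM at DN4, against 0.205, 0.27, 0.183 and 0.179 CPM at DN2/3. Lmo2tg DN4 replicate 4 lay only just above the highest Lmo2tg DN2/3 library. DN4 over DN2/3 gave log2 folds of 5.29 ± 0.79, 5.20 ± 0.83 and 0.55 ± 0.77 (SE) in Ldb1-KO, Lmo2tg and wild type. The Lmo2tg fold was 4.57 without DN4 replicate 1 and 6.04 without DN2/3 replicate 1.

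Lysmd2 rose at DN4 over wild type in Ldb1-KO (log2 fold 4.09 ± 0.79 SE, edgeR adjusted p = 0.000724), without overlap, and in Lmo2tg (log2 fold 2.75 ± 0.75 SE, edgeR adjusted p = 0.0037), with overlap. Without Lmo2tg DN4 replicate 1 the Lmo2tg fold was 2.13 (edgeR adjusted p = 0.0172). Ldb1-KO over Lmo2tg at DN4 did not pass (log2 fold 1.33 ± 0.64 SE, edgeR adjusted p = 0.177), and passed without Lmo2tg replicate 1 (edgeR adjusted p = 0.0491), in a range of 0.0491 to 0.39. At DN2/3, every Lmo2tg library was below every wild type library (log2 fold -1.89 ± 0.85 SE, edgeR adjusted p = 0.0991), on 16 counts over the 5 Lmo2tg libraries against 66 over the 4 wild type ones. That fold passed without Lmo2tg replicate 1 (edgeR adjusted p = 0.0426), with the replicate block (0.0276) and by DESeq2 (0.0474), in a range of 0.0276 to 0.202.

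Pdlim4, which binds actin structures through PDZ and LIM domains, lies at chr11:54054928-54069014 on the minus strand. Ldb1-KO libraries had 9.15, 4.47, 5.94, 14.7 and 11.2 CPM of Pdlim4 at DN4, against 1.37, 0.931, 0.839, 2.42 and 2.47 CPM at DN2/3. Lmo2tg libraries had 4.23, 4.75, 3.12, 9.91 and 3.10 CPM at DN4, against 2.47, 2.28, 0.755, 2.23 and 0.271 CPM at DN2/3. Wild type libraries had 4.04, 4.06, 7.55 and 8.18 CPM at DN4, against 0.0878, 0.135, 0.194 and 0.295 CPM at DN2/3. DN4 was above DN2/3 in all 3 genotypes, and most transgenic DN2/3 libraries were higher than every wild type one. The log2 folds of DN4 over DN2/3 were 2.52 ± 0.49, 1.64 ± 0.48 and 5.01 ± 0.63 (SE) in Ldb1-KO, Lmo2tg and wild type.

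Pdlim4 rose at DN2/3 in Ldb1-KO over wild type (log2 fold 3.10 ± 0.58 SE, edgeR adjusted p = 0.000735) and in Lmo2tg over wild type (log2 fold 3.12 ± 0.58 SE, edgeR adjusted p = 0.000164). The libraries did not overlap in the Ldb1-KO pair and overlapped in the Lmo2tg pair, where Lmo2tg replicate 5 was below wild type replicate 4. At DN4 Pdlim4 was the 1 gene of the 10 that passed no genotype test. Its DN4 means were 9.10 ± 4.12 and 5.02 ± 2.82 CPM in Ldb1-KO and Lmo2tg (SD, n = 5 each) and 5.96 ± 2.21 CPM in wild type (SD, n = 4).

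Arsi encodes arylsulfatase I, of the enzymes that cleave sulfate esters, and is on chromosome 18. Ldb1-KO libraries had 88.7, 47.4, 37.9, 81.3 and 76.9 CPM of Arsi at DN4, against 35.2, 17.7, 18.3, 70.3 and 42.6 CPM at DN2/3. Lmo2tg libraries had 49.6, 69.5, 29.5, 41.3 and 109 CPM at DN4, against 161, 72.8, 46.2, 27.0 and 152 CPM at DN2/3. In wild type, the libraries had 23.2, 14.8, 36.2 and 27.0 CPM at DN4, against 3.51, 1.69, 3.98 and 3.43 CPM at DN2/3. Wild type DN2/3 stood alone as the low group, and the stages overlapped in both transgenic genotypes. By pairs of the same number, DN4 was higher in 5 of 5 in Ldb1-KO and lower in 4 of 5 in Lmo2tg. DN4 over DN2/3 gave log2 folds of 0.85 ± 0.44, -0.62 ± 0.44 and 3.00 ± 0.53 (SE) in Ldb1-KO, Lmo2tg and wild type. With replicate numbers as a block within each genotype they were 0.97 ± 0.23, -0.46 ± 0.23 and 3.00 ± 0.29 (SE) in that order.

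At DN2/3, Arsi rose over wild type in Ldb1-KO (log2 fold 3.53 ± 0.53 SE, edgeR adjusted p = 5.53e-05) and in Lmo2tg (log2 fold 4.86 ± 0.57 SE, edgeR adjusted p = 2.81e-07), with no overlap in either pair. It was lower in Ldb1-KO than in Lmo2tg at DN2/3 (log2 fold -1.32 ± 0.44 SE, edgeR adjusted p = 0.0408), with overlap. That call was lost in 8 of 16 alternatives, among them without Ldb1-KO replicate 1 (0.0749), 2 (0.121), 3 (0.108) or 5 (0.0614), without Lmo2tg replicate 1 (0.129) or 5 (0.124), without the filter (0.0603) and with those groups fitted alone (0.108), in a range of edgeR adjusted p of 0.0116 to 0.129. At DN4, Arsi was above wild type in Ldb1-KO (log2 fold 1.39 ± 0.48 SE, edgeR adjusted p = 0.0288) and in Lmo2tg (log2 fold 1.24 ± 0.48 SE, edgeR adjusted p = 0.0314), without overlap in the Ldb1-KO pair alone. The Ldb1-KO call was lost without Ldb1-KO replicate 1 (0.0626) or 5 (0.0515) and without wild type replicate 1 (0.071), 2 (0.086) or 4 (0.0564), in a range of 0.00425 to 0.086. The Lmo2tg call was lost without Lmo2tg replicate 2 (0.0517) or 5 (0.11) and without wild type replicate 1 (0.0727), 2 (0.0998) or 4 (0.0567), and with the replicate block (0.0551), in a range of 0.0139 to 0.11.

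Counted over the 10 genes at DN4, 6 rose and none fell in Ldb1-KO relative to wild type, in a comparison that called 18.2% of all genes higher and 14.4% lower. Those 6 were Ctla2a, Trpm1, Arhgap20, Lysmd2, Arsi and Pcmtd1, and the median log2 fold of the 10 was 1.59, against 0.03 over all genes tested. In Lmo2tg relative to wild type at DN4, 9 rose and none fell, beside 28.9% of all genes higher and 23.5% lower, with a median of 2.31 against 0.07 over all genes. In Ldb1-KO relative to Lmo2tg at DN4, Scin and Mpzl2 fell and none rose, beside 5.85% of all genes higher and 8.71% lower, with a median of -0.12 against -0.02.

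At DN2/3, Pdlim4 and Arsi rose and none fell in Ldb1-KO relative to wild type, beside 6.98% of all genes higher and 2.58% lower, with a median of 1.51 against -0.01. In Lmo2tg relative to wild type, Pdlim4 and Arsi rose and Scin and Pcmtd1 fell, beside 15.1% higher and 14.4% lower among all genes, with a median of 0.88 against 0.01. In Ldb1-KO relative to Lmo2tg, Scin and Pcmtd1 rose and Arsi fell, beside 8.87% higher and 7.22% lower, with a median of 0.60 against -0.01. The comparisons share libraries, so their counts are not independent. The genes were chosen by levels in these libraries, so nothing is read from the counts or medians of the genotype comparisons at either stage.

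**Figure D4:**
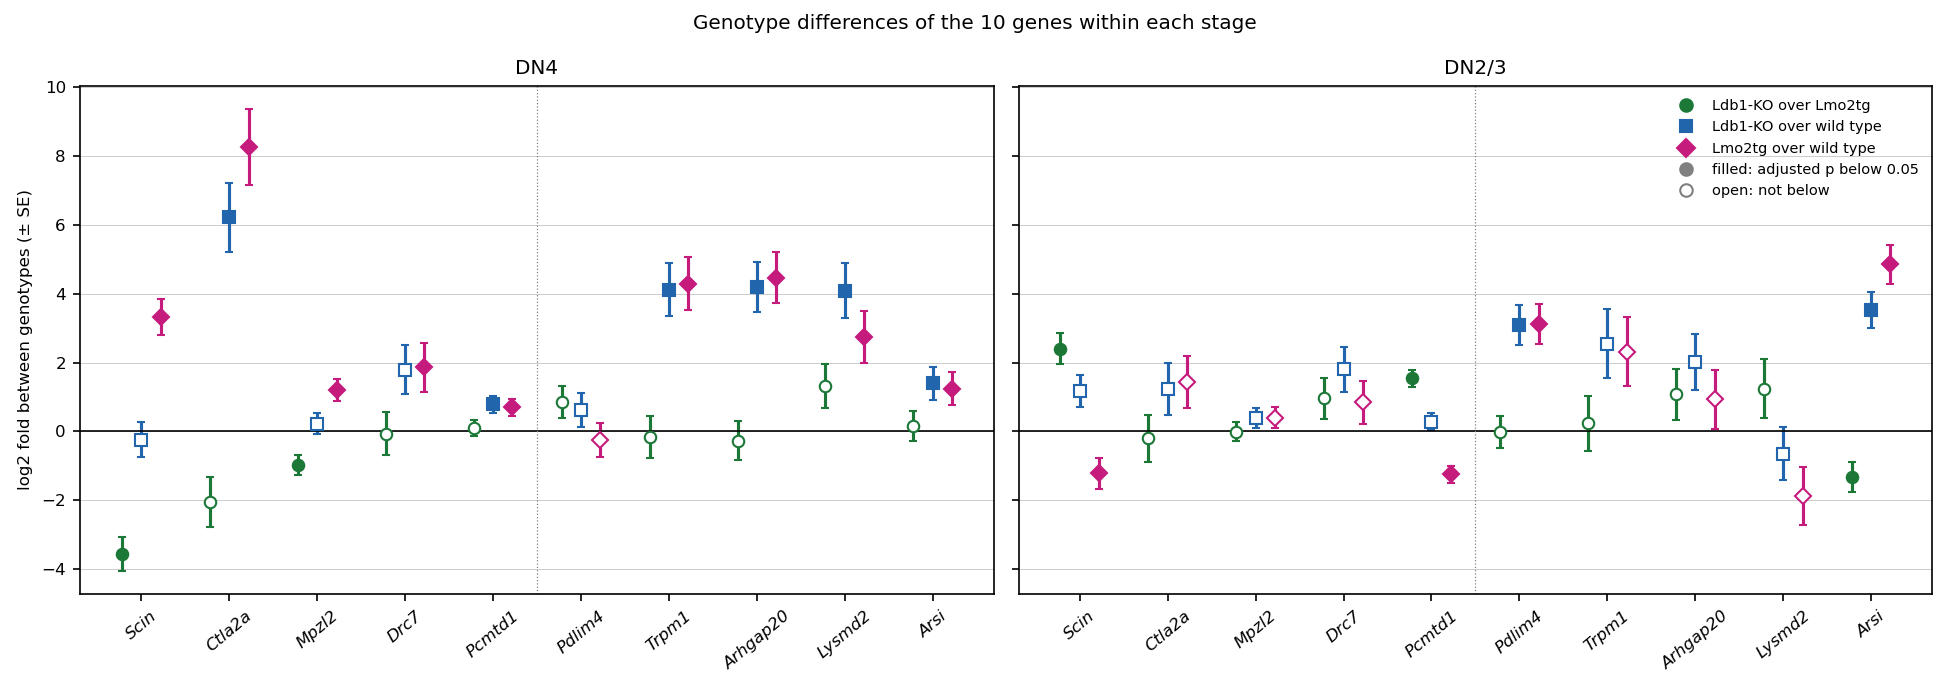
Log2 folds between genotypes (vertical axis, points with SE) of the 10 genes at DN4 (left) and DN2/3 (right), for Ldb1-KO over Lmo2tg, Ldb1-KO over wild type and Lmo2tg over wild type. Filled points passed edgeR's test at an adjusted p below 0.05: at DN4, 2, 6 and 9 of the 10 in that order of comparisons, and at DN2/3, 3, 2 and 4.

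All 10 genes passed the filter on low counts. For 4 of them the low group was under the filter's level of 0.165 CPM in many libraries: 0 of 4 wild type DN2/3 libraries reached it for Trpm1 and Arhgap20, 2 of 4 for Pdlim4, and 0 of 5 Lmo2tg DN2/3 libraries for Lysmd2. Log2 folds against those groups depend on few counts.

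Ordered by their means over the 6 groups, the genes rarely gave 6 separate steps. Scin descended in 3 separate tiers: Ldb1-KO DN2/3 (275 CPM) alone, then wild type DN2/3, Lmo2tg DN2/3 and Lmo2tg DN4 (121, 52.0 and 22.1 CPM), in which neighbours overlapped, then wild type DN4 and Ldb1-KO DN4 (2.22 and 1.82 CPM). Mpzl2 and Drc7 each formed 2 tiers that split by stage. Pdlim4 likewise formed 2 tiers, with the 3 DN4 groups on top. Arhgap20 had the 2 transgenic DN4 groups above the other 4, in which neighbours overlapped. Trpm1 had the same order, but 1 Lmo2tg DN4 library fell within the range of wild type DN4. Neighbouring groups of Lysmd2 overlapped all along the order.

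Markers of other cells moved with stage and genotype as well. Cd8a was at 281, 713, 136, 186 and 305 CPM in Ldb1-KO DN4 libraries, 742, 345, 217, 252 and 161 CPM in Lmo2tg DN4 libraries and 19.7 to 57.5 CPM in wild type DN4 libraries. Cd4 was at 68.9, 329, 23.6, 25.9 and 97.8 CPM in Ldb1-KO DN4, at 422, 45.5, 54.0, 13.4 and 27.8 CPM in Lmo2tg DN4 and at 4.07 to 12.0 CPM in wild type DN4. Lmo2tg replicate 1 was thus the highest DN4 library of its genotype in Cd4, Cd8a, Trpm1, Arhgap20 and Lysmd2. In Ldb1-KO the highest DN4 library in Cd4 and Cd8a was replicate 2, which was also the highest in Arhgap20, while the highest in Trpm1 and Lysmd2 was replicate 5.

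The summed level of 11 double-positive thymocyte markers was 1330.0 to 2990.0 CPM in Ldb1-KO DN4, 1290.0 to 2710.0 CPM in Lmo2tg DN4 and 1040.0 to 1180.0 CPM in wild type DN4. The sum of 12 mature T-cell markers was 1110.0 to 1240.0, 881 to 2530.0 and 343 to 497 CPM in the same order. None of either list was at 0. The sum of 10 erythroid markers was 4.89 to 28.6 CPM in Ldb1-KO DN4, 4.93 to 20 CPM in Lmo2tg DN4 and 1.65 to 1.96 CPM in wild type DN4, with the haemoglobin genes Hba-a2, Hbb-bs and Hbb-bt at 0 in all 3. The sum of 5 gamma-delta T-cell markers was 389 to 1680.0 CPM in Ldb1-KO DN4, 244 to 604 CPM in Lmo2tg DN4 and 230 to 334 CPM in wild type DN4. The sum of 10 NK and innate lymphoid markers, Il2rb among them, was 232 to 404, 261 to 507 and 379 to 524 CPM in the same order. B-cell markers (10 genes) summed to at most 99.4 CPM and myeloid markers (12 genes) to at most 44.3 CPM in any library. Dendritic markers (10 genes) summed to 55.9 to 248 CPM over all libraries. For 11 thymic stroma markers the sum was 122 to 158 CPM at DN4 against 204 to 295 CPM at DN2/3 in Ldb1-KO. It was 115 to 223 against 158 to 274 CPM in Lmo2tg and 90.2 to 124 against 201 to 223 CPM in wild type. The part of any of these cells in the stage or genotype differences was not tested.

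The 70 relatives of the 10 genes, a list of actin-severing proteins, cathepsins, nexin-dynein subunits, PDZ-LIM proteins, TRPM channels, GTPase-activating proteins of the Arhgap family, LysM proteins, sulfatases and isoaspartate methyltransferase partners, were examined between the stages, 60 of them tested. At DN4 relative to DN2/3, 6 rose and 9 fell in Ldb1-KO, where 12.3% of all genes rose and 15.8% fell, and the median log2 fold of the list was 0.11. In Lmo2tg 12 rose and 6 fell, beside 8.32% and 7.04% of all genes, with a median of 0.15. In wild type 15 rose and 14 fell, beside 21.1% and 24.8%, with a median of -0.05. With replicate numbers as a block within each genotype, the calls were 29 in Ldb1-KO and 29 in Lmo2tg in place of 15 and 18. In Lmo2tg the call count was 10 without DN4 replicate 1 and 11 without DN2/3 replicate 5. The tests of single relatives below did not pair libraries by replicate number, so a relative that did not pass may still differ between stages.

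Gsn, gelsolin, the namesake of the Scin family, ran opposite to Scin. It rose at DN4 in Ldb1-KO (63.8 ± 9.84 against 24.5 ± 13.7 CPM at DN2/3, SD, n = 5 each, edgeR adjusted p = 0.000717), in Lmo2tg (157 ± 48.5 against 87.7 ± 21.6 CPM, n = 5 each, edgeR adjusted p = 0.0395) and in wild type (21.0 ± 3.77 against 6.68 ± 1.59 CPM, n = 4 each, edgeR adjusted p = 0.000213). Capg, a capping protein of that family, fell at DN4 in Ldb1-KO (log2 fold -1.20 ± 0.26 SE, edgeR adjusted p = 0.00124) and in wild type (log2 fold -1.81 ± 0.30 SE, edgeR adjusted p = 3.48e-05) and rose in Lmo2tg (log2 fold 1.13 ± 0.26 SE, edgeR adjusted p = 0.00415). Arhgap19, a GTPase-activating protein of dividing cells, rose in Ldb1-KO and wild type (log2 folds 0.68 ± 0.13 and 1.23 ± 0.15 SE, edgeR adjusted p = 0.000514 and 1.1e-06) and fell in Lmo2tg (log2 fold -0.87 ± 0.13 SE, edgeR adjusted p = 8.54e-05). Drc1, of the same ciliary complex as Drc7, fell in wild type (log2 fold -1.79 ± 0.53 SE, edgeR adjusted p = 0.00828), with log2 folds of -1.23 ± 0.47 in Ldb1-KO (edgeR adjusted p = 0.0516) and -0.13 ± 0.47 in Lmo2tg (edgeR adjusted p = 0.893).

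Pcmtd2, the closest relative of Pcmtd1, fell at DN4 in wild type (log2 fold -1.15 ± 0.31 SE, edgeR adjusted p = 0.00371) and had log2 folds of -0.38 ± 0.27 in Ldb1-KO (edgeR adjusted p = 0.318) and 0.34 ± 0.27 in Lmo2tg (edgeR adjusted p = 0.438). Arhgap26, another GTPase-activating protein, fell in all 3 genotypes, with log2 folds of -1.31 ± 0.19 in Ldb1-KO (edgeR adjusted p = 1.08e-05), -0.62 ± 0.18 in Lmo2tg (edgeR adjusted p = 0.0226) and -1.15 ± 0.21 in wild type (edgeR adjusted p = 8.94e-05). Tceb1 (elongin C, of the ubiquitin-ligase adaptor that PCMTD proteins bind) rose in all 3, with log2 folds of 0.54 ± 0.14, 0.45 ± 0.14 and 0.95 ± 0.16 (edgeR adjusted p = 0.00534, 0.0285 and 4.18e-05). Its partner Tceb2 (elongin B) rose in wild type (log2 fold 0.69 ± 0.23 SE, edgeR adjusted p = 0.0151) and did not pass in Ldb1-KO (0.31 ± 0.20 SE, edgeR adjusted p = 0.262) or Lmo2tg (-0.11 ± 0.20 SE, edgeR adjusted p = 0.751).

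Of 58 thymocyte stage genes, 55 were tested. At DN4, 17 rose and 22 fell in Ldb1-KO, 15 rose and 6 fell in Lmo2tg, and 14 rose and 28 fell in wild type, with median log2 folds of -0.09, 0.08 and -0.47. Over all genes, 12.3% rose and 15.8% fell in Ldb1-KO, 8.32% and 7.04% in Lmo2tg, and 21.1% and 24.8% in wild type. With replicate numbers as a block within genotype, the Lmo2tg calls were 39 in place of 21. The tests of single stage genes that follow did not pair libraries by replicate number, so a gene that did not pass may still differ between stages. Erg and Lyl1, transcription factors of early progenitors, followed Scin and Ctla2a in falling at DN4 in Ldb1-KO (log2 folds -3.01 ± 0.67 and -2.0 ± 0.53 SE, edgeR adjusted p = 0.00143 and 0.00597) and in wild type (-6.75 ± 0.92 and -4.33 ± 0.72 SE, edgeR adjusted p = 4.39e-06 and 3.87e-05). In Lmo2tg their log2 folds were -0.84 ± 0.62 and -0.89 ± 0.51 (SE), short of the test (edgeR adjusted p = 0.386 and 0.25). Bcl11a, another such factor, fell in Ldb1-KO and wild type (log2 folds -4.53 ± 0.89 and -3.53 ± 0.92 SE, edgeR adjusted p = 0.000491 and 0.00305), with a log2 fold of 1.35 ± 0.83 SE in Lmo2tg (edgeR adjusted p = 0.292), and Il2ra fell in all 3 genotypes (log2 folds -4.96 ± 0.32, -3.45 ± 0.30 and -5.26 ± 0.37 SE in Ldb1-KO, Lmo2tg and wild type, with edgeR adjusted p at most 1.88e-07). Cd8a, Cd8b1 and Cd2 rose in all 3 genotypes; for Cd8b1, the CD8 beta chain, the log2 folds were 3.65 ± 0.35, 2.80 ± 0.34 and 5.42 ± 0.43 (SE), with edgeR adjusted p at most 8.18e-06.

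Across the 28 libraries, as a description, the log2 level of Trpm1 correlated with that of Arhgap20 at Pearson r = 0.98, and Lysmd2 with Trpm1 at 0.90 and with Arhgap20 at 0.91, all 3 computed on log2(CPM + 0.1). Scin and Mpzl2 correlated at 0.90. Among genes that are not members, those named for their likeness were Il31ra for Scin (0.969), Nfe2 and Nxpe5 for Ctla2a (0.982 each), Il2ra for Mpzl2 (0.958), Parp16 for Drc7 (0.965), Il2rb for Trpm1 (0.972), Itgb8 for Arhgap20 (0.967), Rasgef1a for Lysmd2 (0.947) and Lpp for Pcmtd1 (0.952). The values were lower for Pdlim4 (Cd8b1, 0.897) and Arsi (H2-Q1, 0.88). The libraries share 6 groups, so the 28 points are not independent.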

How the data were processed

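RNA from 28 mouse thymocyte samples was sequenced as paired 101-base reads with a TruSeq V2 RNA kit, which does not mark strand, per the labels' protocols. Per the submitters' processing notes, the reads were aligned to mm10 with STAR 2.5.2a and counted with featureCounts 1.4.6-p3. What the authors deposited is 1 table of unnormalized counts by gene symbol. No source used here gives the annotation or the read-pair setting. Most low counts were even (66.1% to 79.9% of the values up to 200 per library), so mates of a pair appear to have been counted separately. Counting error would then be larger than the counts imply. Of 24421 symbols, 23376 matched GENCODE M21, which gave positions on mm10.

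The model was an edgeR 4.0.16 fit in R 4.3.3 (TMM, filterByExpr by group, 14371 genes kept, robust quasi-likelihood) over 6 groups. P-values are from two-sided F-tests with Benjamini-Hochberg adjustment over all genes kept, called below 0.05. Standard errors are the size of the log2 fold over the square root of F. Stage folds are from this fit, which does not pair libraries, unless a block is named. With replicate numbers as a block within each genotype, the SE of the stage fold was smaller for every member in every genotype. The model was tested on simulated data first. Replicates differed by a chi-square of at least 28.5 per degree of freedom, so no library was a copy.

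The members and lists were chosen with earlier results of these data known. The text names all 10 members, the marker genes of the labels and stages, the 4 largest rises and falls of each list in wild type with 5 CPM or more in the higher stage, and for each member 1 or 2 of the 2 genes most like it. A few genes that this rule names are not reported here. Library numbers pair the stages within a genotype. The deviations from the group means correlated at 0.29 to 0.53 in Ldb1-KO, 0.51 to 0.65 in Lmo2tg and 0.15 to 0.33 in wild type. Every DN4 library was most alike the DN2/3 library of its own number. Alternatives were relative log expression (RLE) size factors, no filter, DESeq2 1.42.0, the replicate block, only the compared groups, each library left out and, chosen after seeing the data, counts halved. Promoter sequences are from RefSeq, GRCm38.p6.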

Additional observations from a re-analysis of the deposited data

Results flagged for a closer look

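A library far from the others of its group was found in 5 of the 60 combinations of gene and group examined. The rule used the gap to the next library over the range of the group. For normally distributed values it would flag about 1 in 20 by chance. It was applied to CPM without logs, so that rate may not hold here, and each of the 5 was the highest library of its group. Scin in Lmo2tg DN4 replicate 3 was at 55.9 CPM, with the other 4 at 7.25 to 21.0 CPM. Mpzl2 in Ldb1-KO DN4 replicate 3 was at 26.2 CPM, with the others at 14.3 to 16.0 CPM. Drc7 in Ldb1-KO DN2/3 replicate 1 was at 56.8 CPM, with the others at 11.8 to 16.6 CPM. Pdlim4 in Lmo2tg DN4 replicate 4 was at 9.91 CPM, with the others at 3.10 to 4.75 CPM. Lysmd2 in Ldb1-KO DN2/3 replicate 2 was at 0.282 CPM, with the others at 0.0531 to 0.114 CPM, a level of few counts.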

How the results depend on the processing

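Of the 10 genes, 2 were called in Ldb1-KO against wild type at DN2/3, 7 with only the compared groups fitted and 4 with DESeq2. In Ldb1-KO against Lmo2tg at DN4, 2 were called, 1 with only the compared groups and 1 to 3 with a library left out (1 without Lmo2tg DN4 replicate 5 or Ldb1-KO DN4 replicate 1, 2 or 5). The replicate block gave 3 and 3 of the 10 in these comparisons, and 5, 3, 8 and 6 in Lmo2tg against wild type at DN2/3, Ldb1-KO against Lmo2tg at DN2/3, Lmo2tg against wild type at DN4 and Ldb1-KO against wild type at DN4. Across genotypes, same-numbered libraries correlated at -0.18 to 0.34. Between Ldb1-KO and Lmo2tg at DN2/3 this was 0.03 to 0.2, with 3 of 5 Ldb1-KO libraries most alike the Lmo2tg library of their own number. They were not treated as pairs, since the correlations were not all above 0.1.

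Of the relatives, 15 were called between stages in Ldb1-KO (29 with the block within genotype, 23 with only the compared groups) and 18 in Lmo2tg (29, 3, and 10 to 25 with a library left out). Of the stage genes, 21 were called in Lmo2tg (39 with that block, 12 with only the compared groups). Counts halved moved no such count by over 1.5 times. All-gene calls moved more in Ldb1-KO against wild type at DN2/3 (1374, with 2449 under the block, 3037 with only the compared groups and 764 to 1406 with a library left out, lowest without wild type replicate 1, and also over 1.5 times lower without wild type replicate 3 or 4 or Ldb1-KO replicate 3), Lmo2tg against wild type at DN4 (7532, 4947 with only the compared groups), Ldb1-KO against Lmo2tg at DN4 (2092, 681) and Ldb1-KO against wild type at DN4 (4680, 2855 to 5028 with a library left out, lowest without wild type replicate 3). Between stages they moved in Lmo2tg (2208, 5569 with the block within genotype, 321 with only the compared groups, 1577 to 3450 with a library left out, highest without DN4 replicate 4) and Ldb1-KO (4039, 6934 with that block). The cause was not tested.

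Folds that changed sign were all uncalled and near 0. In Ldb1-KO over Lmo2tg at DN2/3, Mpzl2 was -0.01 (0.00 with RLE size factors and DESeq2, 0.05 with the replicate block, -0.16 to 0.13 with a library left out), Pdlim4 -0.02 (0.00 with DESeq2, -0.28 to 0.19) and Trpm1 0.23 (-0.08 to 0.91). In Ldb1-KO over Lmo2tg at DN4, Drc7 was -0.07 (-1.09 to 0.24), Trpm1 -0.17 (0.13 with the replicate block, -0.47 to 0.48), Arhgap20 -0.27 (0.13 with that block, -0.56 to 0.55), Arsi 0.15 (-0.02 to 0.48) and Pcmtd1 0.10 (-0.06 to 0.28). Scin in Ldb1-KO over wild type at DN4 was -0.25 (-0.52 to 0.04). Of the single-gene values and all-gene counts under alternatives, 1438 were counted as unchanged, each kind by its own rule. Genotype folds had to keep direction and side of the threshold. Stage folds, which have no threshold, had to move by less than the SD between libraries, and all-gene counts by at most 1.5 times. Among genotype folds, 45 lost a call, 22 gained one and 29 changed sign, and 13 all-gene counts moved by over 1.5 times. Depth limits Trpm1, Arhgap20 and Lysmd2 at DN2/3.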
